A study of Homo sapiens with 4 samples.

Results

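The BCL2 family apoptosis regulators described here are 10 genes, fixed by name and found in the deposited table by Ensembl ID: the effectors BAX and BAK1, the BH3-only genes BBC3, PMAIP1, BCL2L11, BID and BMF, and the survival genes MCL1, BCL2L1 and BCL2. All 10 were among the 60617 gene IDs measured. Messenger RNA came from T24 and 5637, established lines of human urinary bladder carcinoma, each grown in RPMI medium with fetal bovine serum. The groups were T24 with protodioscin, T24 untreated, 5637 with protodioscin and 5637 untreated, with 1 library each and 4 in all. Protodioscin, a steroidal saponin of plants such as yam and fenugreek, was given for 6 h, at 60 µM in T24 and 70 µM in 5637 by the sample titles. The protocol text states these doses as millimolar, and no vehicle is named for the untreated controls. The question was how the mRNA profile of each line responds to protodioscin. With no replicate within a group, differences within a line carry no error and no p-value, and they are given as descriptions.

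Values are FPKM, in which fragments are divided by transcript length and by library size, so levels of different genes can be set side by side. Differences are on the log2(FPKM + 1) scale, which understates those of genes at low levels. The spacing of the lowest values put 1 fragment on a transcript of 1 kb at 0.0344 to 0.0493 FPKM. The depth this implies was 1.30 in treated T24, 1.20 in treated 5637 and 1.43 in untreated 5637, relative to untreated T24. In both lines the epithelial keratins KRT7, KRT8, KRT18 and KRT19 were present in every library. The epithelial cadherin gene CDH1 was at 72.3 and 69.6 FPKM in treated and untreated 5637, and was listed at 0 in treated and at 0.016 FPKM in untreated T24. EPCAM was at 2.35 and 2.09 FPKM in treated and untreated T24, and at 106 and 108 FPKM in treated and untreated 5637. Mesenchymal genes were also present, listed treated before untreated. FN1 was at 1419 and 1530 FPKM in T24 and 191 and 235 FPKM in 5637. CDH2 was at 45.6 and 48.5 FPKM in T24 and 26.7 and 33.4 FPKM in 5637. VIM was at 61.4 and 68.0 FPKM in T24 and 267 and 304 FPKM in 5637. ZEB1 was at 8.38 and 8.46 FPKM in T24 and 0.179 and 0.0702 FPKM in 5637. The 11 markers of leukocytes, endothelium and other tissues reached at most 1.57 FPKM, for the endothelial cadherin gene CDH5 in untreated T24. Transcripts of the mitochondrial genome held 3.74% of the FPKM sum in treated and 4.50% in untreated T24, and 11.9% in treated and 9.84% in untreated 5637.

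BCL2 family proteins control the permeability of the outer mitochondrial membrane. The effectors BAX and BAK form pores that release cytochrome c, which starts the caspase cascade. Survival proteins such as MCL1, BCL-XL (the product of BCL2L1) and BCL2 hold effectors and BH3-only proteins in check, and BH3-only proteins are induced or activated by stress and either block survival proteins or switch on effectors directly. The members are tied together by the BH3 domain, a short helix that fits into a groove of survival proteins.

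The 10 members share part of the BH3 domain. The family and its BH3-only class are grouped by this domain, so its presence followed from the choice of genes. In the principal coding transcript of each, as annotated in GENCODE 29, exactly 1 stretch of 6 codons matched the BH3 core, which runs from a leucine codon to a glycine or alanine codon followed by an aspartate codon. A match was found in 24.7% of 19650 coding genes, so the core alone does not mark the family. The stretches of 45 bases around it are shown on the coding strand because they are what the 3 classes have in common, with the 18 bases of the core in capitals.
BAX: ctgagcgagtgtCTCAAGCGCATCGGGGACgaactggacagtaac
BAK1: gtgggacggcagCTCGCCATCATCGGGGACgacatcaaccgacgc
BBC3: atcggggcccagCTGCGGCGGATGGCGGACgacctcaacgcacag
PMAIP1: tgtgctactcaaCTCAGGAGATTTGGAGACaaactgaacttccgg
BCL2L11: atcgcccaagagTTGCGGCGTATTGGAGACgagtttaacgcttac
BID: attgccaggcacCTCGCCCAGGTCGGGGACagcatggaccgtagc
BMF: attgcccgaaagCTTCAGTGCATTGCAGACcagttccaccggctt
MCL1: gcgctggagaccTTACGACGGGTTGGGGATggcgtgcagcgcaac
BCL2L1: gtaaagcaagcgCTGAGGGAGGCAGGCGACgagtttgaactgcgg
BCL2: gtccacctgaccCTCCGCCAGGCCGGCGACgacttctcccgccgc

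On GRCh38 each stretch lies within a single coding exon. The effector stretches are at chr19:48955775-48955819 (BAX, plus strand, exon 3) and chr6:33575384-33575428 (BAK1, minus strand, exon 4). The BH3-only stretches are at chr19:47226576-47226620 (BBC3, minus strand, exon 3), chr18:59902661-59902705 (PMAIP1, plus strand, exon 2), chr2:111150091-111150135 (BCL2L11, plus strand, exon 4), chr22:17739412-17739456 (BID, minus strand, exon 4) and chr15:40104192-40104236 (BMF, minus strand, exon 4). The survival stretches are at chr1:150578862-150578906 (MCL1, minus strand, exon 1), chr20:31721919-31721963 (BCL2L1, minus strand, exon 2) and chr18:63318346-63318390 (BCL2, minus strand, exon 2). Between members, 7 to 14 of the 18 core bases were the same. The closest pairs, at 14 bases, were BID with BAK1 and BID with BCL2, which join genes of different classes. The coding sequences differ in length: that of PMAIP1 has 54 codons and that of MCL1 has 350.

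Survival transcripts dominated the 10 members in every library. BCL2L1 was at 71.9 FPKM in treated and 86.1 FPKM in untreated T24, and at 96.1 FPKM in treated and 104 FPKM in untreated 5637. MCL1, a short-lived survival protein that many cells depend on, was at 66.0 FPKM in treated and 72.4 FPKM in untreated T24, and at 70.2 FPKM in treated and 73.2 FPKM in untreated 5637. These 2 genes lay at or above the 93rd percentile of genes at 1 FPKM or more in each library. BCL2, the founding member of the family, was at 1.60 FPKM in treated and 1.65 FPKM in untreated T24, and at 1.16 FPKM in treated and 1.08 FPKM in untreated 5637. It made up 0.604% to 1.14% of the summed survival FPKM, so the survival total was almost wholly BCL2L1 and MCL1.

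The effectors were at intermediate levels. BAX was at 26.7 FPKM in treated and 24.8 FPKM in untreated T24, and at 24.4 FPKM in treated and 23.7 FPKM in untreated 5637. BAK1 was at 19.4 FPKM in treated and 18.5 FPKM in untreated T24, against 9.57 FPKM in treated and 9.42 FPKM in untreated 5637. BAX held 57.9% and 57.3% of the effector sum in treated and untreated T24, and 71.8% and 71.6% in treated and untreated 5637, so BAK1 gave a larger share in T24.

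The 5 BH3-only members ran between 0.275 and 28.2 FPKM over the 4 libraries. PMAIP1, which encodes NOXA, a partner of MCL1, was at 26.8 FPKM in treated and 28.2 FPKM in untreated T24, and at 18.4 FPKM in treated and 17.6 FPKM in untreated 5637. BID, which caspase-8 cleaves to link death receptors to mitochondria, was at 9.41 FPKM in treated and 10.9 FPKM in untreated T24, and at 16.7 FPKM in treated and 19.6 FPKM in untreated 5637. Among these 5 members PMAIP1 was the highest in T24, whereas the values of BID and PMAIP1 overlapped in 5637. BAD, a BH3-only gene outside the members, was higher, at 35.4 and 33.5 FPKM in treated and untreated T24. In treated and untreated 5637 BAD was at 30.3 and 31.4 FPKM.
BCL2L11, which encodes BIM, was at 2.93 FPKM in treated and 2.15 FPKM in untreated T24, and at 7.05 FPKM in treated and 6.27 FPKM in untreated 5637. BMF, whose protein is held at the cytoskeleton in healthy cells, was at 1.502 FPKM in treated and 0.971 FPKM in untreated T24, and at 1.90 FPKM in treated and 1.92 FPKM in untreated 5637. BBC3, which encodes PUMA, was at 2.14 FPKM in treated and 1.73 FPKM in untreated T24, and at 0.289 FPKM in treated and 0.275 FPKM in untreated 5637. These 3 genes were at the low end of the family, and BBC3 was the lowest member in 5637. If all its reads came from its longest annotated transcript, BBC3 rested on about 13 and 15 fragments in treated and untreated 5637, so its level there is imprecise.

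**Figure D1:**
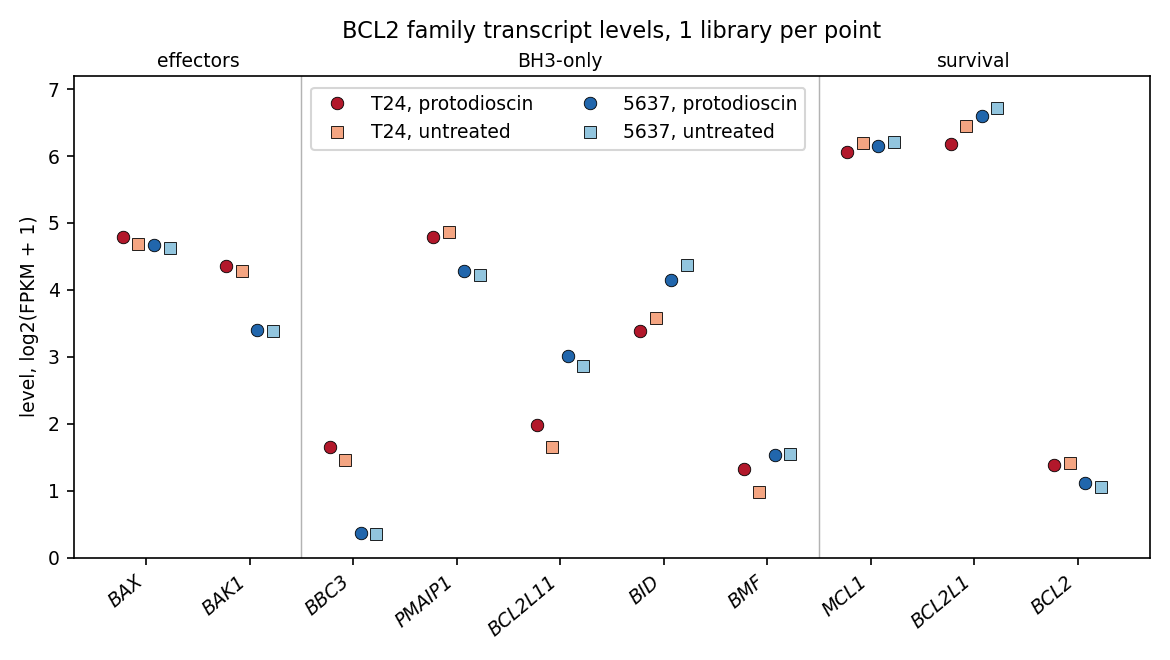
Level of each member as log2(FPKM + 1) in the 4 libraries, with treated libraries as circles left of untreated ones as squares and T24 left of 5637. BCL2L1 and MCL1 sit above all other members, the 4 points of BAX and of MCL1 lie close together, and BBC3, BCL2L11 and BAK1 separate by line.

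In order of level, BCL2L1 and MCL1 came first in every library, but their ranges over the treated and untreated libraries overlapped in T24 (71.9 to 86.1 FPKM and 66.0 to 72.4 FPKM). PMAIP1, BAX and BAK1 followed in T24, then BID, BCL2L11, BBC3, BCL2 and BMF. PMAIP1 and BAX were within 0.115 FPKM of each other in treated T24. In 5637 the order was BAX, then BID and PMAIP1 with overlapping ranges, then BAK1, BCL2L11, BMF, BCL2 and BBC3.

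The lines differed in most members. A limma fit over all 4 libraries, with line and treatment as terms, compared T24 with 5637 in the 12893 genes that reached 1 FPKM in 2 or more libraries, and all 10 members passed that filter. Each line is represented by its 1 treated and 1 untreated library. Whether these came from separate cultures is not stated, and the p-values reflect the spread among the 4 libraries alone, which may be technical. At a Benjamini-Hochberg adjusted p below 0.05, 8 members were called, 4 higher in T24 and 4 higher in 5637. Of all genes fitted, 68.9% were called, 35.1% higher in T24 and 33.9% lower, so the count among members is near the background and shows nothing particular to the family. In bulk RNA of this kind, fewer cells that express a gene and less RNA per cell cannot be told apart.

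Among effectors, BAK1 was higher in T24 by 0.93 (SE 0.075, limma adjusted p 0.000118), and BAX was not called, at 0.093 (SE 0.067, limma adjusted p 0.257). Among BH3-only genes, BBC3 was higher in T24 by 1.19 (SE 0.11, limma adjusted p 0.000227) and PMAIP1 by 0.58 (SE 0.072, limma adjusted p 0.000669). BBC3 passed the filter on low values only through the T24 libraries and so had to differ, and without it 7 of 9 members were called. The other BH3-only genes had the opposite sign: BCL2L11 was lower in T24 with a difference of -1.12 (SE 0.10, limma adjusted p 0.000198), BID with -0.78 (SE 0.075, limma adjusted p 0.000229) and BMF with -0.39 (SE 0.13, limma adjusted p 0.0352).

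Among survival genes, MCL1 was not called between the lines, at -0.051 (SE 0.060, limma adjusted p 0.476, and 0.031 with TPM scaling). BCL2L1 was lower in T24, at -0.34 (SE 0.065, limma adjusted p 0.00437), and BCL2 was higher in T24, at 0.31 (SE 0.11, limma adjusted p 0.0422). The calls of BMF and BCL2 were lost under other settings: BMF had adjusted p-values of 0.0244 to 0.188 and BCL2 of 0.0131 to 0.179 over the limma alternatives. BAK1, BBC3, PMAIP1, BCL2L11, BID and BCL2L1 were called in every alternative fit that included them.

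**Figure D2:**
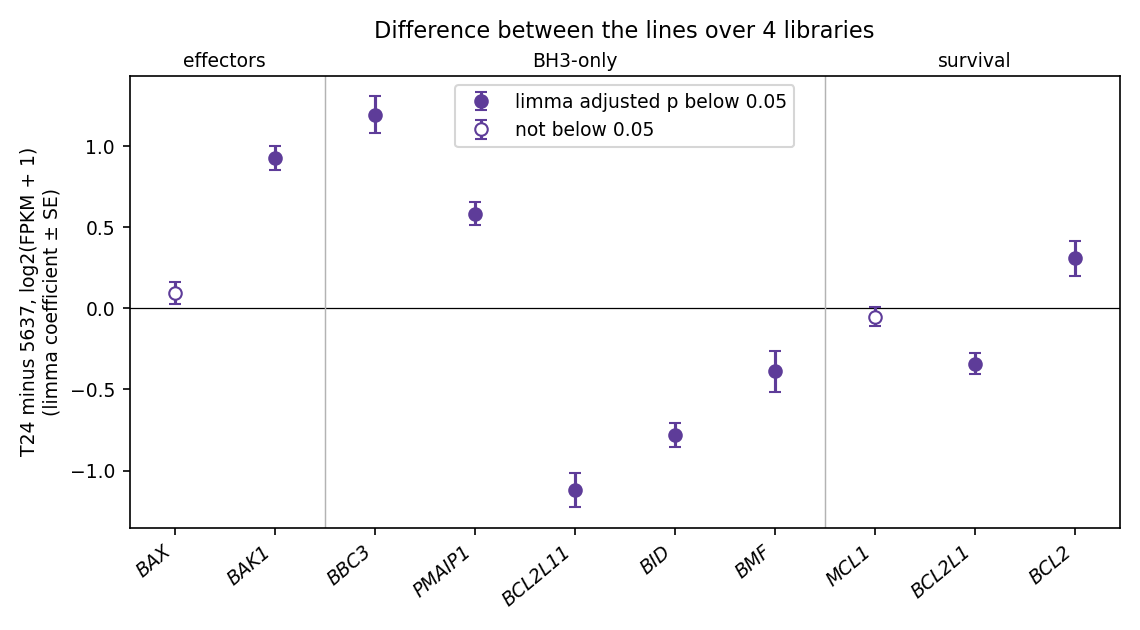
Difference between the lines for each member, T24 minus 5637, as the limma coefficient with its SE on the log2(FPKM + 1) scale over 4 libraries; filled points had an adjusted p below 0.05. BAK1, BBC3, PMAIP1 and BCL2 lie above 0, BCL2L11, BID, BMF and BCL2L1 lie below it, and BAX and MCL1 are open points near 0.

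In T24 treated with protodioscin, the members' differences from untreated cells were small and ran in both directions, also within the BH3-only class. BMF differed by 0.34 and BCL2L11 by 0.32 on the log2 scale, which as plain ratios of FPKM were 1.55 and 1.37, and BBC3 differed by 0.20, a ratio of 1.24. BID, at -0.19, and PMAIP1, at -0.070, had the opposite sign within the BH3-only class. All 3 survival genes were below untreated T24, with BCL2L1 at -0.26, a ratio of 0.834, MCL1 at -0.13 and BCL2 at -0.030. The effectors BAX and BAK1 were slightly above, at 0.10 and 0.066. The median was 0.20 for BH3-only genes, -0.13 for survival genes and 0.084 for effectors, beside 0.025 for all 12193 genes compared in T24.

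No member reached a 2-fold difference in T24, a size passed upward by 0.205% and downward by 0.279% of genes. At 0.25 or more, 2 members were higher, BMF and BCL2L11, against 8.00% of all genes, and 1 was lower, BCL2L1, against 8.58% of all genes. A difference as large as that of BMF in either direction was found in 8.15% of genes, as large as that of BCL2L11 in 9.57% and as large as that of BCL2L1 in 15.5%. The differences of these members thus lie within the range that many other genes show between the same libraries. BMF and BCL2L11 were at low levels, and their differences depended on the pseudocount: BMF was at 0.58 and BCL2L11 at 0.43 with a pseudocount of 0.1, and at 0.12 and 0.15 with a pseudocount of 5. With TPM scaling BCL2L1, at -0.248, no longer passed 0.25 and BBC3, at 0.27, did. On their longest transcripts, BMF rested on about 185 and 92 fragments and BCL2L11 on about 403 and 228 fragments in treated and untreated T24.

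In 5637 treated with protodioscin, the members lay closer to untreated cells than 0.25 throughout. BID had the largest difference, at -0.22, a ratio of 0.852, followed by BCL2L11 at 0.15, a ratio of 1.13, and BCL2L1 at -0.11, a ratio of 0.926. PMAIP1 was at 0.064, MCL1 at -0.061, BCL2 at 0.055 and BMF at -0.012. BAX and BAK1 were at 0.040 and 0.021, but both were below 0 with median-ratio scaling, at -0.021 and -0.037, and with TPM scaling, at -0.0010 and -0.019, and BAK1 was also below 0 with quantile scaling, at -0.020. BBC3, under 1 FPKM in both 5637 libraries, was at 0.016 and was left out of the 9 members compared.

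In 5637, 0 of 9 members differed by 0.25 or more, where 9.31% of all 12635 genes were that much higher and 6.40% that much lower. The 2-fold size was passed upward by 0.174% and downward by 0.214% of genes. The balance of higher to lower genes in 5637 depended on scaling: 59.2% of the genes past 0.25 were higher as deposited, 48.1% with TPM, 44.1% with quantile and 38.5% with median-ratio scaling. With each of those 3 scalings BID passed 0.25 downward, at -0.26 to -0.28. A difference as large as that of BID was found in 20.5% of genes. The class medians were 0.026 for the 4 BH3-only genes compared, -0.061 for survival genes and 0.030 for effectors, beside 0.043 for all genes.

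**Figure D3:**
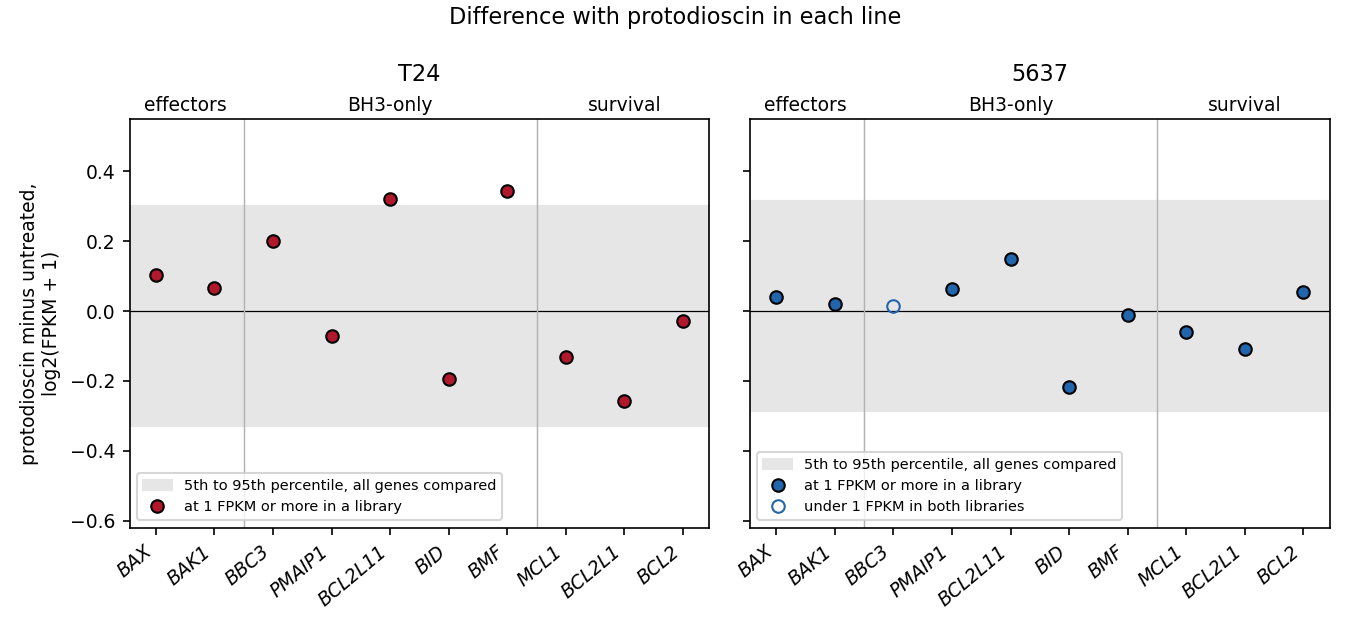
Difference of each member between the treated and the untreated library on the log2(FPKM + 1) scale, in T24 on the left and 5637 on the right; the grey band spans the 5th to 95th percentile of all genes compared and the open point is a gene under 1 FPKM in both libraries. In T24, BMF and BCL2L11 lie just above the band, which ends at 0.30, and in 5637 all members lie inside it.

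BCL2L11 was above 0 in both lines, and BID, MCL1 and BCL2L1 were below 0 in both, under every setting that included them. BAX and BAK1 were above 0 in both lines as deposited, but below 0 in 5637 with median-ratio and TPM scaling. The 2 contrasts share no library, but doses differed. In the limma fit, the treatment effect was called in 0 of 10 members and in 0% of 12893 genes, with limma adjusted p-values of 0.505 to 0.992 among members. At an unadjusted p below 0.05 there were 2 members, against 1227 genes, 9.52% of all. These were BCL2L1, at -0.18 (SE 0.065, limma p 0.0307, adjusted p 0.505, lower in 2 of 2 lines), and BID, at -0.21 (SE 0.075, limma p 0.0326, adjusted p 0.505, lower in 2 of 2 lines). BCL2L11 was at 0.23 (SE 0.10, limma p 0.0641, adjusted p 0.535, higher in 2 of 2 lines) and MCL1 at -0.096 (SE 0.060, limma adjusted p 0.63). Each gene had 1 residual degree of freedom, which is the disagreement between the lines. The SEs also drew on a prior variance over all genes fitted, with 4.99 degrees of freedom. Effects of this size could not be told from the spread between these libraries.

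Transcripts of other genes lie on the same bases as some members, and libraries made with the TruSeq RNA v2 kit do not mark strand. MIR4435-2HG, a long non-coding RNA gene, lies opposite BCL2L11 over 727 bases, 10.9% of the annotated exonic bases of BCL2L11. It was at 9.89 and 12.2 FPKM in treated and untreated T24, and at 16.4 and 15.6 FPKM in treated and untreated 5637, above BCL2L11 in each library. Between treated and untreated cells, MIR4435-2HG and BCL2L11 differed in opposite directions in T24 and in the same direction in 5637. ABALON, opposite BCL2L1 over 43.0% of the exonic bases of BCL2L1, was at 0.577 to 0.686 FPKM in the 4 libraries. Reads that lie on the shared bases of such pairs cannot be assigned to a gene by strand. Gene-level FPKM also sums the long and short splice forms of BCL2L1, MCL1 and BCL2L11. The proteins of such forms can act in opposite ways, as those of BCL2L1 do.

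Summed by class over the 10 members, survival transcripts made up most of the FPKM. The sums leave out other family genes, among them the BH3-only genes BAD and BIK, the survival gene BCL2A1 and the BAX-like BOK. In untreated T24 and untreated 5637, BAD was at 33.5 and 31.4 FPKM and BIK at 0.318 and 17.1 FPKM. The sums and ratios of the BH3-only class therefore hold for the members alone. The survival sum was 139 FPKM in treated and 160 FPKM in untreated T24, and 167 FPKM in treated and 178 FPKM in untreated 5637. The BH3-only sum was close to level, at 42.8 FPKM in treated and 43.9 FPKM in untreated T24, and at 44.4 FPKM in treated and 45.7 FPKM in untreated 5637. The effector sum was 46.1 FPKM in treated and 43.3 FPKM in untreated T24, against 33.97 FPKM in treated and 33.1 FPKM in untreated 5637. The sums show a lower survival total with treatment in each line beside a near-constant BH3-only total, in which BID and PMAIP1 weigh more than BCL2L11, BMF and BBC3.

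Over the same members, the ratio of survival to BH3-only FPKM was 3.26 in treated and 3.65 in untreated T24. In 5637 it was 3.77 in treated and 3.90 in untreated cells. On the log2 scale, treated minus untreated was -0.16 in T24 and -0.048 in 5637. The ratio of survival to effector FPKM was 3.03 in treated and 3.70 in untreated T24, and 4.93 in treated and 5.38 in untreated 5637, with log2 differences of -0.29 and -0.13. All 4 of these differences were below 0, and none has a replicate check. Both ratios of a line share its survival sum, so their signs are not separate observations. The ratio to effectors was lower in both T24 libraries than in both 5637 libraries, in which BAK1 was lower and BCL2L1 higher.

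**Figure D4:**
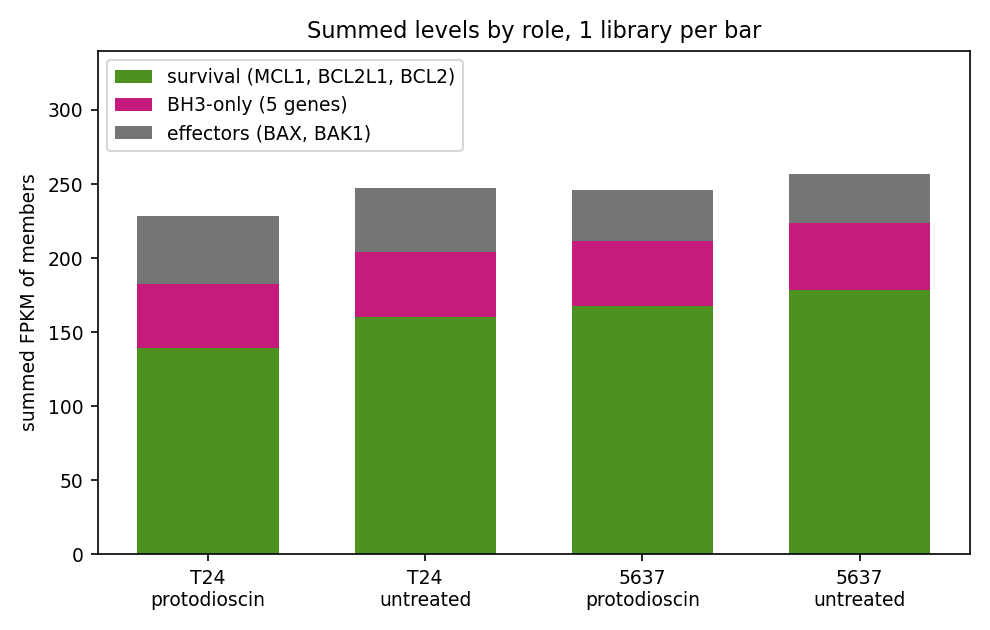
Summed FPKM of survival, BH3-only and effector members in each library, 1 library per bar and no error. The survival part lies between 139 and 178 FPKM and is the largest in all 4 bars, and the BH3-only part stays between 42.8 and 45.7 FPKM.

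The promoter window of BCL2L11 is shown because BCL2L11 had the widest range over the 4 libraries, 1.36 on the log2 scale, and because FOXO factors are known regulators of this gene. The window runs from 250 bases before to 50 bases after the RefSeq start, at chr2:111120664-111120963 on GRCh38.p14, plus strand. The capitals mark the FOXO motif GTAAACA.
BCL2L11 promoter: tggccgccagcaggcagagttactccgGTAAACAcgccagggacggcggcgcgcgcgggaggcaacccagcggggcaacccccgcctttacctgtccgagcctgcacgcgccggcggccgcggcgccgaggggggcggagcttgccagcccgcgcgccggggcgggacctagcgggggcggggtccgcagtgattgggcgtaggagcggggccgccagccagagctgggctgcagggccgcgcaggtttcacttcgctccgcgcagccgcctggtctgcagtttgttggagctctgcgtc

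Read on both strands, GTAAACA was in 3.42% of 35116 RefSeq promoter windows of the same length, and among the 15 windows of the 9 members that had one, only in that of BCL2L11. The AP-1 motif TGANTCA, which is in 7.71% of windows, was in that of BBC3. The NF-kB motif of 10 bases, which is in 5.91% of windows, was in a window of BMF. TGATGNAA (3.62%), TGACGTCA (1.85%) and TTTCGCGC (0.515%) matched no member's window. No motif overlapped another in these windows, and a match describes letters only. FOXO3 itself was at 8.89 and 7.85 FPKM in treated and untreated T24 and at 12.6 and 15.2 FPKM in treated and untreated 5637. FOXO3 had a difference of 0.16 in T24 and -0.26 in 5637, where BCL2L11 had 0.32 and 0.15.

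The rest of the intrinsic pathway was read from 6 further gene lists, and 0 of their members was called for treatment by limma. Over all genes compared, 56.0% were above 0 in T24 and 61.5% in 5637, which is the background for the counts below. Among other BCL2 family genes, 5 of 6 compared were above 0 in T24 (median 0.073) and 3 of 8 in 5637 (median -0.028). BNIP3L, a mitophagy receptor, was at 17.0 and 14.0 FPKM in treated and untreated T24 and at 26.4 and 18.6 FPKM in treated and untreated 5637, with an effect of 0.37 (SE 0.082, limma adjusted p 0.482). BCL2L13, another mitochondrial family protein, was at 20.1 and 16.0 FPKM in treated and untreated T24 (0.31). BOK, a BAX-like effector, was at 0.904 and 1.40 FPKM in treated and untreated 5637 (-0.33).

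Among the other family genes, BOK, BIK and BCL2A1 had differences between the lines of over 2 on the log2 scale, larger than that of any of the 10 members. BOK was higher in T24, at 11.8 and 13.0 FPKM in treated and untreated cells, by 2.65 (SE 0.10, limma adjusted p 8.04e-06). The BH3-only gene BIK was lower in T24, at 0.186 and 0.318 FPKM in treated and untreated cells against 14.5 and 17.1 FPKM in treated and untreated 5637, with a difference of -3.75 (SE 0.10, limma adjusted p 2.22e-06). The survival gene BCL2A1 was at 0.630 and 0.304 FPKM in treated and untreated T24, against 9.48 and 8.33 FPKM in treated and untreated 5637, with a difference of -2.76 (SE 0.11, limma adjusted p 7.39e-06). BIK and BCL2A1 passed the filter only through 5637 and so had to differ.

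Among apoptosome, caspase and mitochondrial release genes, 8 of 10 were above 0 in T24 (median 0.14) and 7 of 10 in 5637 (median 0.077). ENDOG, a mitochondrial nuclease, was at 5.56 and 3.87 FPKM in treated and untreated T24 (0.43) and at 5.79 and 4.92 FPKM in treated and untreated 5637 (0.20). HTRA2, a mitochondrial protease that antagonises inhibitors of apoptosis, was at 8.27 and 6.40 FPKM in treated and untreated T24 (0.33). The inhibitor of apoptosis genes had 5 of 5 above 0 in T24 (median 0.084) and 3 of 5 in 5637 (median 0.039), and BIRC3 alone passed 0.25, at 1.55 and 1.09 FPKM in treated and untreated T24. Outer membrane partners had medians of -0.060 in T24 and 0.13 in 5637, and the BAK-binding channel gene VDAC2 was at 52.0 and 64.7 FPKM in treated and untreated T24 (-0.31). Genes of MCL1 protein turnover had medians of 0.15 in T24 and 0.0041 in 5637, with none of 5 past 0.25.

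Transcription regulators of family genes had a median of -0.0039 in T24 and 0.055 in 5637. The stress factor ATF3 was at 10.0 and 6.81 FPKM in treated and untreated T24 (0.50) and at 3.80 and 1.81 FPKM in treated and untreated 5637 (0.77). TP73, a transcription factor, was at 10.4 and 7.90 FPKM in treated and untreated T24 (0.36), and the AP-1 subunit JUN at 36.0 and 29.2 FPKM (0.29). In 5637 the differences of TP73 and JUN were 0.13 and 0.20. MYC had -0.73 in T24 and -0.23 in 5637. In 5637 TP63 had -0.51, FOXO3 -0.26 and FOXO1 -0.26. In T24 FOXO3 had 0.16 and FOXO1 -0.0039, and TP63 was at 0 and 0.0232 FPKM in treated and untreated cells, too low to compare.

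**Figure D5:**
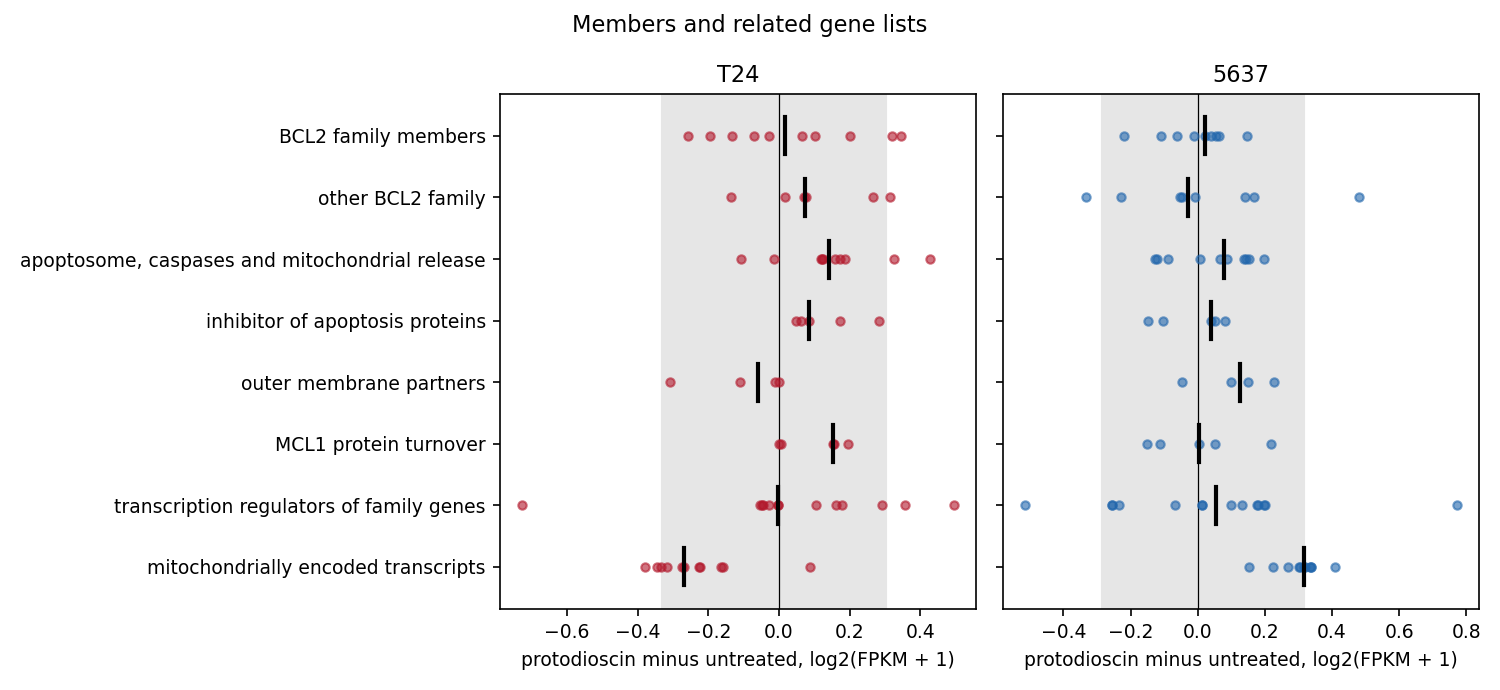
Difference between the treated and the untreated library on the log2(FPKM + 1) scale for the family members and 7 related lists, in T24 on the left and 5637 on the right; each point is a gene, black bars are medians and the grey band spans the 5th to 95th percentile of all genes compared. Medians of the members are near 0 in both lines, and the median of mitochondrially encoded transcripts lies below 0 in T24 and above 0 in 5637.

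Mitochondrially encoded transcripts differed in opposite directions in the 2 lines, with 10 of 11 below 0 in T24 (median -0.27) and 11 of 11 above 0 in 5637 (median 0.32). With all values scaled to the sum without those transcripts, an alternative chosen after seeing the data, 3 members were past 0.25 in T24 and 0 in 5637, as before. The part of library depth, which was higher in treated than in untreated T24 and lower in treated than in untreated 5637, was not tested.

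The genes whose pattern over the 4 libraries was nearest to the 2 members of widest range were found by Euclidean distance of mean-centred log2(FPKM + 1) among the genes fitted. SNX10 was nearest to BCL2L11, at a distance of 0.038, followed by NDUFA5 at 0.071 and GPR160 at 0.076. ITFG1 was nearest to BBC3, at 0.012, followed by SLC43A2 at 0.031 and BEND7 at 0.034. These distances describe 4 libraries, and no test was made.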

How the data were processed

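Per the labels' protocols, RNA isolated on Qiagen columns was made into TruSeq RNA v2 libraries and read as 150-base pairs. The authors deposited gene-level FPKM. Per the submitters' processing notes, Trimmomatic, HISAT2 and StringTie were used with GRCh38; their settings, versions and gene annotation were not given in the sources used here. The effect of those settings on low genes is not known.

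FPKM was analysed as log2(FPKM + 1) with pandas 2.3.3 in Python 3.11.15. Within a line, genes that reached 1 FPKM in either library were compared, and sizes of 0.25 and of 1 (2-fold) were used. Treatment and line effects were fitted over all genes with limma 3.58.1 in R 4.3.3 (trended prior variance, 1 residual degree of freedom). Simulated data were also fitted, with normal noise drawn from the prior of the same fit. They cannot show whether the model suits these libraries. FPKM values are not counts, and count models were not used. Cell line was the block of the treatment fit, since libraries of a line share their cells. Symbols came from a table of gene names, and positions and exon overlap from GENCODE 29. Named were all members, list genes past 0.25 in either line and the 3 nearest genes to 2 members. List genes that differed by 0.1 or more in opposite directions in the 2 lines were named as well. BAD, BIK and BCL2A1 were chosen after their values were seen. Some genes, 1 gene list and 1 promoter motif are not reported here. Alternatives, including 1 chosen after seeing the data (scaling without mitochondrially encoded transcripts), are given at the end. Members and lists were chosen with earlier results of these data known.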

Additional observations from a re-analysis of the deposited data

Results flagged for a closer look

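No family member differed by 0.1 or more in opposite directions in the 2 lines. Among the genes of related lists reported here, 8 nuclear genes did, and the difference between the lines was not tested for any of them. The share of all genes that meet this rule was not computed, so these counts have no background beside them and show nothing particular to the members or lists. The T24 difference minus the 5637 difference was 0.92 for CDKN1A, 0.45 for HTRA2, 0.43 for MDM2, 0.42 for FOXO3 and 0.27 for HUWE1, which were above 0 in T24 and below 0 in 5637. It was -0.54 for VDAC2, -0.26 for VDAC3 and -0.25 for CYCS, which were below 0 in T24 and above 0 in 5637. It was also below 0 for 10 mitochondrially encoded transcripts, at -0.68 for MT-ND1, -0.43 for MT-ND2, -0.62 for MT-ND4, -0.46 for MT-ND5, -0.68 for MT-ND6, -0.70 for MT-CO1, -0.45 for MT-CO2, -0.67 for MT-CO3, -0.54 for MT-ATP6 and -0.61 for MT-CYB.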

How the results depend on the processing

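The alternatives were pseudocounts of 0.1 and 5, no filter or one at 5 FPKM, median-ratio, TPM and quantile scaling, leaving out genes with same-strand exon overlap, and scaling without mitochondrially encoded transcripts. The treatment effect was called in 2 genes with a pseudocount of 0.1 and in 2 without exon-sharing genes, none of them a member. No replicate numbers are given in the labels: cell line paired the libraries, and with no replicate block for line the fit called 0 genes, with 9 at an unadjusted p below 0.05. Members past 0.25 in T24 numbered 0 with a pseudocount of 5 and 1, BCL2L1, with a filter at 5 FPKM, which leaves 6 members. They numbered 4 with a pseudocount of 0.1, which adds BBC3 at 0.29, and 3 with TPM, where BBC3 at 0.27 takes the place of BCL2L1 at -0.248. In 5637 there was 1, BID, with each of the 3 scalings. Leaving out T24 or 5637 gives the other line's difference, from -0.26 to 0.34 over the members, with no test. The log2 ratio of survival to BH3-only FPKM was 1.71 in treated and 1.87 in untreated T24, and 1.92 in treated and 1.96 in untreated 5637. Without MCL1 it was 0.78 and 0.998 in T24 and 1.13 and 1.20 in 5637, and without BID 2.06 and 2.28 in T24 and 2.60 and 2.77 in 5637, treated before untreated. The sign turned for BCL2 under treatment (-0.0099 with median-ratio and -0.0042 with quantile scaling, from 0.013) and for MCL1 between the lines (0.031 with TPM). The causes were not tested. BBC3 in 5637 rested on about 13 and 15 fragments in treated and untreated cells, which limits its precision.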
